A study of Arabidopsis thaliana with 6 samples.

Results

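The response of transcription factor (TF) genes to 5 d of embryogenic culture was compared between the tanmei mutant and the Col-0 wild type. For every gene the change between explants and the 5 d culture was computed in each genotype, and the response of tanmei was subtracted from that of Col-0. Genes were included when the Ct was below 35 in at least 2 of the 4 groups used, which held for 1645 of the 1880 rows on the panel. The second-lowest Ct of an included gene reached 34.9991, and that of the 235 rows left out started at 35.0064, so the threshold cut through a continuous range.

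The material was immature zygotic embryos at the late cotyledonary stage, taken from siliques of 10 to 12 days and cultured with 5 µM 2,4-D, a synthetic auxin. The groups were tan1-2 explants, that is the SE-impaired tanmei allele, labelled as non-embryogenic, at 0, 5 and 10 d, and the highly embryogenic Col-0 ecotype at the same times. Both genotypes received the same medium, so a group without 2,4-D is not part of the comparison. Each gene was measured with 1 primer pair by quantitative RT-PCR, and 1 mean Ct of 3 replicates per gene and group was available. Ct is the PCR cycle at which the product crosses a fluorescence threshold, so that a Ct lower by 1 stands for a 2-fold higher transcript level.

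Somatic embryogenesis (SE) is the formation of embryos from somatic cells, and in Arabidopsis it is commonly induced by auxin in immature zygotic embryos. TAN encodes a WD-repeat protein needed in zygotic embryo development. AP2/EREBP proteins bind DNA through the AP2 domain and include regulators of meristems, ethylene and stress responses. ABI3/VP1 proteins carry a B3 domain, and ABI3, FUS3 and LEC2 direct the maturation programme of the embryo. The TAN gene itself was not analysed here, so the mutant label was not checked against its own transcript. The embryo markers ABI3 and FUS3 were abundant in the explants of both genotypes, with Ct of 19.3 and 18.3 in tanmei and 18.1 and 20.1 in Col-0. LEC2 stood at a Ct of 26.9 in tanmei explants and 28.9 in Col-0 explants. In such bulk samples fewer cells of a type and less RNA per cell cannot be told apart.

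Since each group had 1 value per gene, no spread between replicates could be computed and no test was made. Changes are called when they pass 2-fold or 10-fold, and "rose" and "fell" are used of changes past 2-fold. All differences are on the log2 scale and run Col-0 minus tanmei, so that a positive value means a more upward or less downward response in Col-0. On each plate the difference was taken relative to the plate's median. That median lay between 0.97 and 1.14 on the 5 plates, which means that the raw response of the median gene was about that much more upward in Col-0. Each response was centred on its plate in the same way, so 2 responses given for a gene differ by slightly more or less than the difference itself. Without centring, 189 genes had a response at least 2-fold greater in tanmei and 871 in Col-0. The deposited Ct were not normalised to a reference gene, so any difference in RNA input between groups remains in values without centring. Its part in them was not tested.

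Relative to the plate median, the genotypes differed at least 2-fold in the 5 d response of 798 genes, or 48.5% of the members. The response was greater in tanmei for 383 genes (23.3%) and greater in Col-0 for 415 genes (25.2%). Differences past 10-fold were found for 89 genes (5.41%) with the greater response in tanmei and for 101 genes (6.14%) with the greater response in Col-0. The quartiles of all members were -0.93 and 1.01, with a median of 0.06. The 5th and 95th percentiles were -3.46 and 3.70. A group with a Ct of 40 or none was involved in 60 of the 798 differences past 2-fold and in 39 of the 190 past 10-fold. Where only 1 group was affected, the size is a bound. Where 2 were, the size and the sign can be undetermined.

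**Figure D1:**
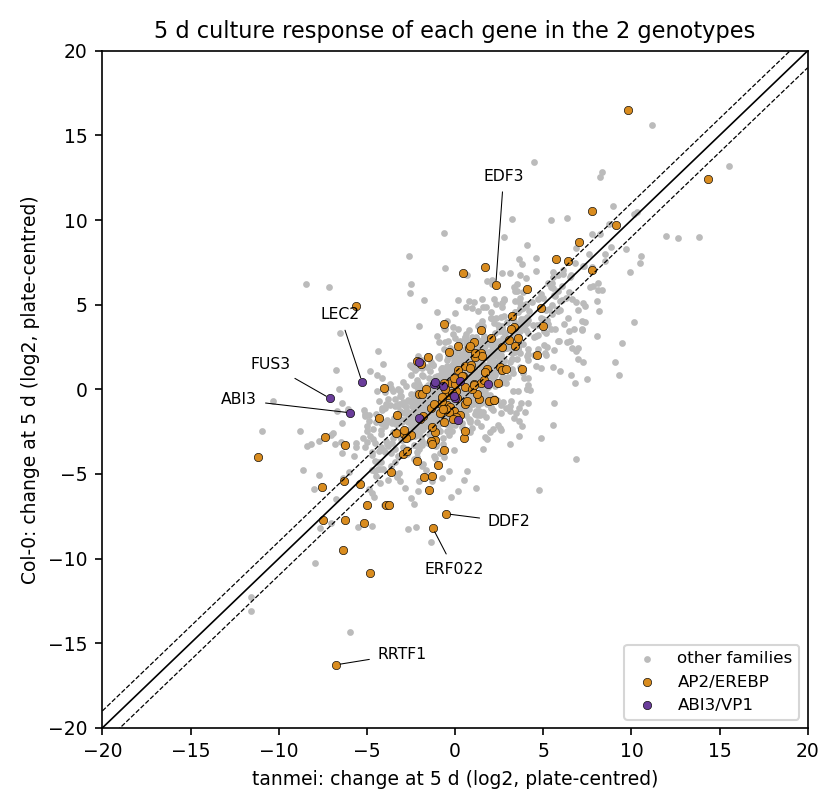
Change of each of the 1645 genes at 5 d relative to explants (log2, relative to the plate median), in tanmei on the x axis and in Col-0 on the y axis, with AP2/EREBP and ABI3/VP1 genes in colour. The solid line marks equal responses and the dashed lines a difference of 2-fold; LEC2, FUS3 and ABI3 lie far to the left of the line, and RRTF1, DDF2 and ERF022 below it.

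The difference was more widely spread among genes with a higher mean Ct over the same 4 groups. Among 293 genes with a mean Ct of 22 to 24 the quartiles were -0.60 and 0.66, and 30.4% passed 2-fold. Among 128 genes with a mean Ct of 32 to 34 the quartiles were -1.93 and 1.73, and 75.0% passed 2-fold. The 91 most abundant transcripts were shifted towards Col-0, with a median of 0.44, and 26 of them had the greater response in Col-0 against 3 in tanmei. A group at a Ct of 40 raises both the mean Ct and the difference, and the part of this and of measurement error in the wider spread was not tested.

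**Figure D2:**
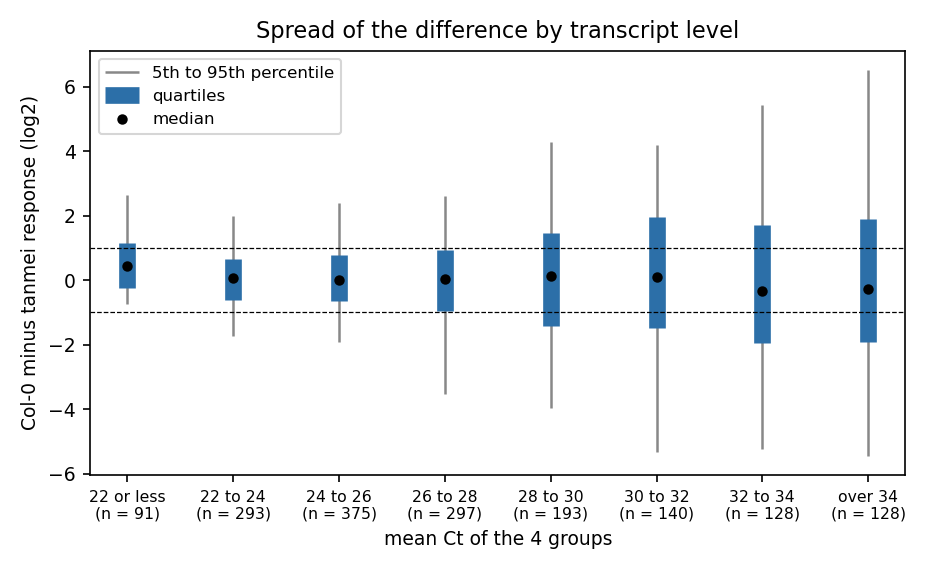
Difference between the responses (Col-0 minus tanmei, log2) by the mean Ct of the 4 groups, with the median as a point, the quartiles as a bar and the 5th to 95th percentile as a line. The dashed lines mark 2-fold; the quartiles stay within them up to a Ct of 28, apart from those of the 91 genes at 22 or less, and lie outside them at higher Ct.

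A difference in response can come from the explants, from the 5 d culture or from both. Of the 798 genes past 2-fold, 239 (29.9%) differed 2-fold between the genotypes in explants only, 228 (28.6%) in the 5 d culture only and 254 (31.8%) at both times. The remaining 77 (9.65%) differed by less than 2-fold at each time. Over all members these shares were 18.8%, 17.7%, 26.0% and 37.5%. Among the genes that differed at both times, the sign was opposite in explants and at 5 d for 56 of 117 with the greater response in tanmei and for 46 of 137 with the greater response in Col-0. In the others one genotype held more transcript at both times and the gap widened or narrowed.

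In terms of the direction of the response, 38 genes rose in tanmei and fell in Col-0, and 31 fell in tanmei and rose in Col-0. These were 2.31% and 1.88% of all members. A response that went the same way past 2-fold in both genotypes but differed in size was more frequent, at shares near those over all members. Over all members, 23.4% rose in both genotypes and 18.9% fell in both. Among genes with the greater response in tanmei, 101 (26.4%) rose in both genotypes and 71 (18.5%) fell in both. Among those with the greater response in Col-0, 93 (22.4%) rose in both and 86 (20.7%) fell in both.

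The B3 regulators of embryo maturation stood among the genes with the largest differences. All 3 members, LEC2, FUS3 and ABI3, fell in tanmei at 5 d, and their responses were more than 10-fold greater in Col-0. The median difference of the list was 5.84, against 0.06 over all members. The identity of ABI3 was checked directly against the study's own values, and that of LEC2 and FUS3 only through neighbouring gene codes.

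LEC2 had a Ct of 26.9, 32.6 and 33.6 in tanmei at 0, 5 and 10 d, against 28.9, 27.7 and 27.2 in Col-0. The transcript fell by 5.28 on the log2 scale in tanmei at 5 d and changed by 0.45 in Col-0, a difference of 5.84. In explants LEC2 was the more abundant in tanmei by raw Ct, and in culture it was the more abundant in Col-0.

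FUS3 had a Ct of 18.3, 25.8 and 28.2 in tanmei, against 20.1, 20.0 and 21.1 in Col-0. Its level fell by 7.10 in tanmei and changed by -0.53 in Col-0, a difference of 6.67. In Col-0 the Ct of FUS3 at 5 d stayed near that of the explants, and in tanmei it did not.

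ABI3, which mediates abscisic acid (ABA) responses in seeds, had a Ct of 19.3, 25.7 and 31.0 in tanmei, against 18.1, 18.8 and 19.6 in Col-0. It fell by 5.94 in tanmei and by 1.39 in Col-0, a difference of 4.65. Unlike the other members it was already 2-fold higher in Col-0 explants, by 2.24. At 10 d, in groups that did not enter the difference, the level in Col-0 exceeded that in tanmei by 5.59 for LEC2, 6.41 for FUS3 and 10.72 for ABI3.

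**Figure D3:**
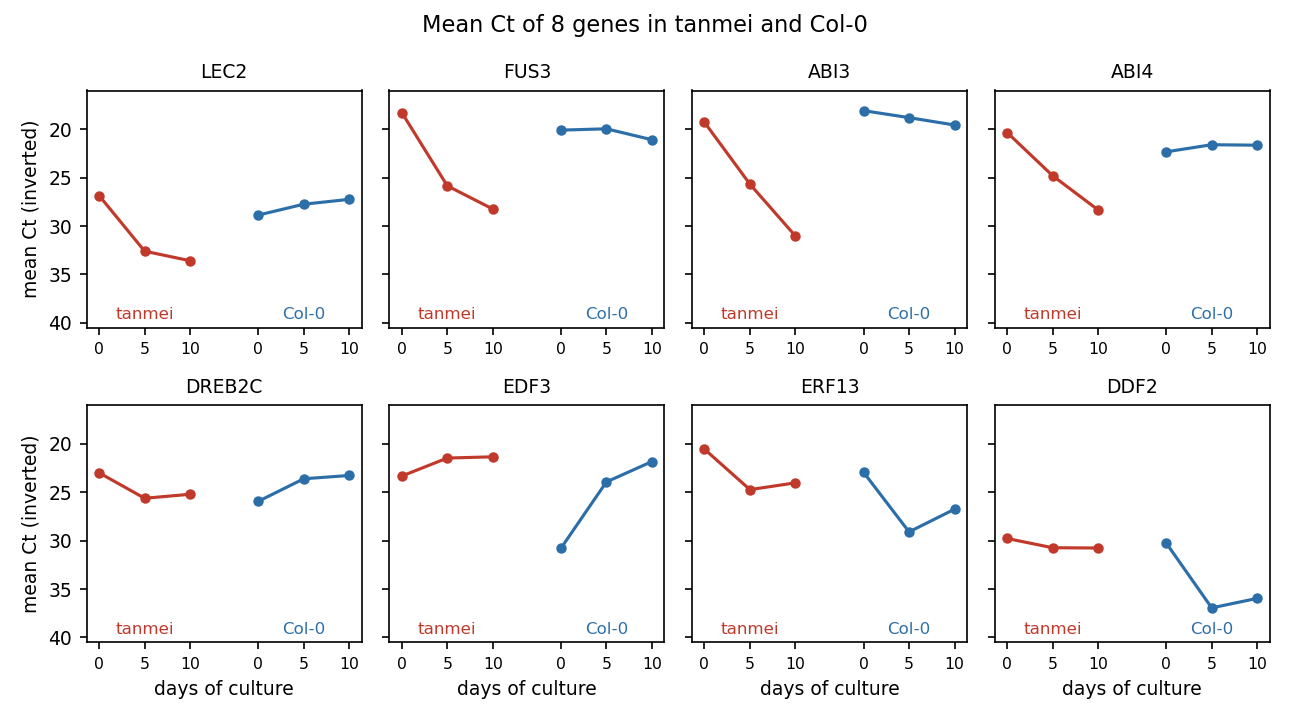
Deposited mean Ct of 8 genes at 0, 5 and 10 d of culture, in tanmei (left of each panel) and in Col-0 (right); the axis is inverted so that more transcript is higher. LEC2, FUS3, ABI3 and ABI4 decline further in tanmei than in Col-0, where ABI3 also falls and LEC2 moves slightly upward, EDF3 shows its large change in Col-0, and ERF13 and DDF2 drop further in Col-0 than in tanmei.

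The ABI3/VP1 family held 13 members, all on the panel's first plate. Of these, 2 had a greater response in tanmei and 6 in Col-0, against 21.1% and 26.1% of the 199 genes of families other than AP2/EREBP and ABI3/VP1 on that plate. Beside the maturation regulators, the 6 included VAL3, DPA4 and AT3G11580, of which the last 2 were named after their values were seen. DPA4, a repressor of leaf margin outgrowth, had a Ct of 25.6, 28.2 and 30.5 in tanmei and 29.3, 27.1 and 26.9 in Col-0. It fell in tanmei and rose in Col-0, with a difference of 3.77.

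The VAL proteins repress the seed programme after germination. VAL3 had a Ct of 27.5 and 29.1 in tanmei at 0 and 5 d, against 29.4 and 28.3 in Col-0, a difference of 1.62. The differences of VAL1, at 0.95, and of VAL2, at 0.34, were below 2-fold, but passed it without centring, at 1.97 and 1.36. The NGATHA genes, which act in the growth of lateral organs and the style, included the 2 ABI3/VP1 members with the greater response in tanmei. NGA2 changed by 0.17 in tanmei and fell by 1.80 in Col-0, and NGA1 rose by 1.85 in tanmei and changed by 0.29 in Col-0. Without centring, the differences of NGA1 and NGA2 were -0.44 and -0.85, below 2-fold. NGA3 and NGA4 differed by -0.41 and -0.20.

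The AP2/EREBP family had 137 members. The response was greater in tanmei for 44 (32.1%) and greater in Col-0 for 35 (25.5%), with a median of -0.09 and quartiles of -1.40 and 1.09. Past 10-fold there were 8 and 12 genes, against 7.04% and 6.03% of the members of the other families on the plate. A group with a Ct of 40 or none was involved in 9 of the 79 differences. Without centring the counts were 20 and 65, and the sign of the median was reversed, at 0.93, so the balance between the genotypes in this family rests on the centring.

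ABI4 and WRI1, both of AP2/EREBP, had the greater response in Col-0. Their identity was checked only through neighbouring gene codes. The paper lists ABI4 as expressed in Col-0 explants and not in tanmei explants, unlike the Ct of 20.3 found here in tanmei explants. It lists RAP2.6L likewise, whose code was checked directly and whose Ct in tanmei explants was 21.1. ABI4, a regulator of ABA and sugar responses in seeds, had a Ct of 20.3, 24.8 and 28.3 in tanmei, against 22.3, 21.6 and 21.6 in Col-0. It fell by 4.00 in tanmei at 5 d and changed by 0.07 in Col-0, a difference of 4.17. WRI1, an activator of fatty acid synthesis in seeds, had a Ct of 20.1, 23.8 and 23.8 in tanmei and 19.7, 20.5 and 21.2 in Col-0. It fell in both genotypes, and less in Col-0, with a difference of 1.88. WRI3 and WRI4, its relatives that act in cutin and wax formation, differed in the other direction, by -1.45 and -2.51. Without centring that of WRI3 was -0.43. WRI4 rose by 3.79 in tanmei and by 1.18 in Col-0.

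The DREB2 genes act in dehydration and heat responses. DREB2C had a Ct of 23.0, 25.6 and 25.2 in tanmei, against 25.9, 23.6 and 23.3 in Col-0. It fell by 2.17 in tanmei and rose by 1.66 in Col-0, a difference of 3.94. DREB2A and DREB2B fell in both genotypes at 5 d, and their differences of 0.99 and -0.77 were below 2-fold. Without centring that of DREB2A was 2.01.

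Further genes had differences past 10-fold towards Col-0. AT5G18450, which carries no name in RefSeq, had a Ct of 21.5, 33.1 and 34.7 in tanmei and 23.0, 26.4 and 24.9 in Col-0, a difference of 7.27. RAP2.9 had a Ct of 21.8, 29.7 and 27.2 in tanmei and 21.6, 23.8 and 25.6 in Col-0, a difference of 4.67. Both transcripts fell in both genotypes, and further in tanmei. AT1G72570 changed by -0.65 in tanmei and rose by 3.84 in Col-0, a difference of 4.59.

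EDF3, ERF1 and DRNL differed more between the genotypes in explants than at 5 d, and EDF3 and ERF1 still differed past 2-fold at 5 d. EDF3, an ethylene-responsive member of the RAV group, had a Ct of 23.3, 21.5 and 21.3 in tanmei, against 30.8, 23.9 and 21.8 in Col-0. It rose by 2.31 in tanmei and by 6.18 in Col-0, a difference of 3.97, and the raw Ct of the genotypes drew together at 10 d. ERF1, an activator of ethylene and jasmonate defence genes, had a Ct of 24.9, 27.0 and 24.1 in tanmei and 31.3, 28.7 and 25.7 in Col-0. It fell by 1.56 in tanmei and rose by 1.90 in Col-0, a difference of 3.55. DRNL, which acts in cotyledon initiation, changed by -0.32 in tanmei and rose by 2.21 in Col-0, a difference of 2.63. DRNL differed by 2.92 in explants, higher in tanmei, and by less than 2-fold at 5 d, with a Ct of 26.0 in tanmei and 26.3 in Col-0.

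A few of the largest differences rest on transcripts with a Ct of 40 in Col-0 explants. TDR1, a regulator of ascorbate synthesis, had a Ct of 28.5, 34.6 and 30.9 in tanmei and 40, 34.4 and 33.0 in Col-0, so that its response was greater in Col-0 by at least 10.61. ERF115, which acts in the replacement of damaged stem cells in the root, had a Ct of 31.8, 22.5 and 22.7 in tanmei and 40, 22.8 and 22.9 in Col-0, a difference of at least 6.84. SHN2, a regulator of cutin and wax deposition, had a Ct of 30.9, 31.0 and 34.4 in tanmei and 40, 32.4 and 30.9 in Col-0, a difference of at least 6.56. These bounds take 40 as the last cycle. With every Ct above 35 set to 35, the differences were 5.65 for TDR1, 1.88 for ERF115 and 1.59 for SHN2. ERF115 reached nearly the same Ct in both genotypes at 5 d.

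Of the 12 genes with the largest differences towards tanmei in these families, 8 were at least 2-fold lower at 5 d than in explants in tanmei and 10 in Col-0. Of the 12 towards Col-0, 8 were lower by that much in tanmei and 3 in Col-0. Over all members, 18.9% fell in both genotypes. A further 8.45% fell in tanmei and changed by less than 2-fold in Col-0, and 7.72% did the reverse. Both sets of 12 were ranked by the difference itself, which favours falls in the genotype with the lesser response. The genes towards tanmei included RRTF1, DDF1, DDF2 and CBF1. RRTF1, a redox- and jasmonate-responsive factor, had a Ct of 25.0, 32.2 and 30.4 in tanmei, against 24.4, 40 and 36.9 in Col-0. It fell in both genotypes, and further in Col-0, with a difference of -9.42 or beyond. With Ct above 35 set to 35 the difference was -4.38. ERF13 had a Ct of 20.6, 24.7 and 24.0 in tanmei and 22.9, 29.1 and 26.8 in Col-0, and RAP2.6 had a Ct of 19.9, 26.7 and 24.3 in tanmei and 19.6, 28.4 and 27.7 in Col-0. The differences were -2.99 for ERF13 and -3.05 for RAP2.6, and both genes were higher in tanmei at 10 d as well.

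The CBF/DREB1 genes, which activate cold and drought responses, shared this direction in 4 of 5 members analysed. DDF2 had a Ct of 29.8, 30.7 and 30.8 in tanmei and 30.3, 36.9 and 36.0 in Col-0, a difference of -6.75, or -4.77 with Ct above 35 set to 35. DDF1 fell by 1.74 in tanmei and by 5.18 in Col-0, a difference of -3.34. CBF1 and CBF2 fell in both genotypes, with differences of -2.63 and -1.75, whereas that of CBF3 was 0.87. Without centring the difference of CBF2 was -0.73, below 2-fold, and that of CBF3 was 1.89, a greater response in Col-0. The Ct of CBF1, CBF2, DDF1 and DDF2 at 5 d lay above 30 in both genotypes. Over the 4 groups, CBF1, CBF2 and DDF1 had a mean Ct of 28 to 30, where 61.7% of all members passed 2-fold. DDF2 had one of 30 to 32, where 69.3% did.

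ERF022 and SNZ differed most in the explants. ERF022 had a Ct of 30.1, 31.8 and 31.3 in tanmei, against 24.1, 31.6 and 30.1 in Col-0, a difference of -6.83. SNZ, a floral repressor of the AP2 group, had a Ct of 28.4, 30.3 and 33.2 in tanmei and 23.5, 28.8 and 29.0 in Col-0, a difference of -4.33. In both genes the high level of Col-0 explants was not kept in culture. DREB26 and ERF8 had differences of -2.73 and -3.27. DREB26 rose by 2.18 in tanmei and changed by -0.65 in Col-0, and ERF8 changed by 0.49 in tanmei and fell by 2.89 in Col-0. AT1G75490 had a Ct of 18.0 and 22.3 in tanmei at 0 and 5 d, against 16.9 and 23.1 in Col-0, a difference of -2.78.

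Of 8 AINTEGUMENTA-like genes listed, 7 were matched by name and 5 were analysed. The name AIL1 was not found for any code, so its row may be one given by code only, and the values do not describe the whole group. Genes given by code only, such as AT1G72570 with a difference of 4.59, were not assigned to any group. The differences of the 5 genes analysed ran between -0.55 and 1.14. These genes maintain stem cells and organ growth, and BBM is known to induce somatic embryos when overexpressed. Of these 5, none had a greater response in tanmei and BBM alone had a greater one in Col-0, at 1.14. Without centring PLT1, at 1.47, and ANT, at 1.42, also passed 2-fold towards Col-0. BBM was measured near the detection limit, with a Ct of 33.8, 34.9 and 34.2 in tanmei and 33.4, 32.4 and 31.8 in Col-0. PLT1 rose by 3.35 in tanmei and by 3.70 in Col-0, and PLT2 rose by 3.59 in tanmei and by 3.02 in Col-0. PLT3 rose by 1.83 and 1.18 in tanmei and Col-0, and ANT changed by less than 2-fold in both. PUCHI, a regulator of lateral root primordia, had a Ct of 40 in the explants of both genotypes and of 26.1 in tanmei and 26.9 in Col-0 at 5 d, so no difference in response is given for it.

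The cytokinin response factors, the RAV group and the oxygen-sensing group VII factors were mixed. Among 5 cytokinin response factors, CRF1 had a greater response in tanmei, at -1.14, and CRF4 and CRF5 had greater ones in Col-0, at 2.50 and 1.85. CRF4 changed by 0.14 in tanmei and rose by 2.54 in Col-0. RAV2 had a difference of -1.54, while those of RAV1 and TEM1 were 0.47 and 0.68. CRF2 and CRF6 differed by 0.89 and -0.62. In group VII the differences were -1.61 for HRE1 and 1.90 for RAP2.3, and those of RAP2.2, RAP2.12 and HRE2 were below 2-fold. WIND1, which promotes dedifferentiation at wounds, had a difference of -0.72. In the group of ERF1, the differences of ERF1A and ERF6 were -1.73 and -1.11 and that of ORA59 was -0.72. AP2 and TOE1, which act in flowers and flowering time, differed by 0.91 and 0.54, and DRN by -0.53. Without centring the differences of CRF1, RAV2 and HRE1 were -0.12, -0.52 and -0.59, and those of ERF1A and ERF6 were -0.71 and -0.09, all below 2-fold. Conversely, CRF2, RAV1, TEM1, RAP2.2, HRE2, AP2 and TOE1 passed 2-fold towards Col-0 without centring, at 1.91, 1.49, 1.70, 1.38, 1.59, 1.93 and 1.56.

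Other families are described by their label only. A label was used where at least 10 rows could be linked and at least 75% of them stood under the same family label in the study's tables. This held for 9 families. These were AP2/EREBP, bHLH, MYB, C2H2, NAC, HB, MADS, C2C2(Zn) DOF and AS2 (LOB) I. Their medians lay between -0.51 and 0.22. AS2 (LOB) I, the lateral organ boundaries family, was at the low end, with the greater response in tanmei for 12 and in Col-0 for 3 of 25 members, or 48.0% and 12.0%. Its median response was 0.88 in tanmei and -0.26 in Col-0. Without centring its median was 0.51, so the sign rests on the centring.

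The bHLH family had the greater response in tanmei for 31 (21.8%) and in Col-0 for 47 (33.1%) of 142 members, with a median of 0.12. It lay on 2 plates, and its median was 0.23 on one and -0.11 on the other. The NAC family had equal counts of 29 in each direction among 96 members, and its quartiles, -1.48 and 1.53, were the widest of the 9 families. MYB likewise had 36 in each direction among 123 members. NAC also lay on 2 plates, with medians of 0.25 and -0.20. On the first, 43.5% of its 23 members passed 2-fold, against 56.6% of the other genes there. On the second, 65.8% of its 73 members did, against 44.3%. MADS had 15 greater in tanmei and 22 greater in Col-0 of 66 members at a median mean Ct of 31.0, and of all members with a mean Ct of 30 to 32 69.3% passed 2-fold. HB had 19 and 25 of 87 members, C2H2 had 27 and 29 of 122, and C2C2(Zn) DOF had 7 and 6 of 32.

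**Figure D4:**
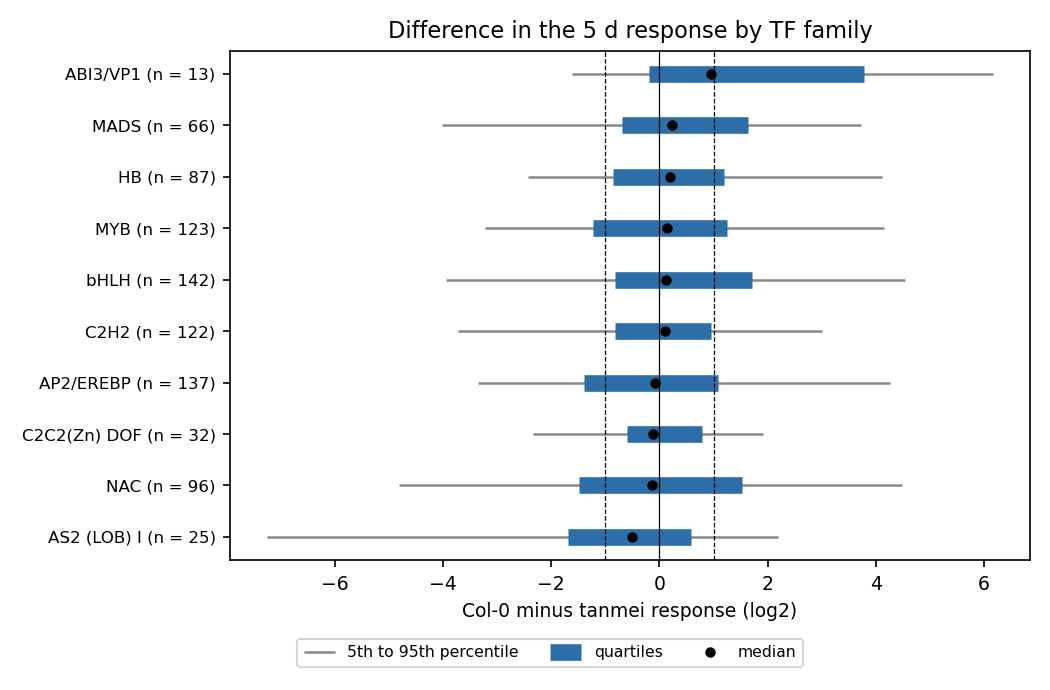
Difference between the 5 d responses (Col-0 minus tanmei, log2) in the 9 families whose labels were used and in ABI3/VP1, with the median as a point, the quartiles as a bar and the 5th to 95th percentile as a line. The medians of the 9 families lie between -0.51 for AS2 (LOB) I and 0.22 for MADS, inside the dashed lines at 2-fold, and that of the 13 ABI3/VP1 genes is 0.95.

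The cultures at 10 d did not enter the rule and show how the difference continued. Over all members, the level at 10 d was 2-fold higher in tanmei for 22.0% and 2-fold higher in Col-0 for 24.8%. Of the 89 genes with a response at least 10-fold greater in tanmei, 45 (50.6%) were higher in tanmei at 10 d and 19 (21.3%) in Col-0. Of the 101 genes with a response at least 10-fold greater in Col-0, 24 (23.8%) were higher in tanmei at 10 d and 53 (52.5%) in Col-0.

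By the time at which the genotypes differed 2-fold, the largest class was that of genes that differed both in explants and at 5 d. Of 51 such genes with the greater response in tanmei, 26 were higher in tanmei at 10 d and 11 in Col-0. Of 58 with the greater response in Col-0, 15 were higher in tanmei and 29 in Col-0. Where the levels differed at 5 d only and the response was greater in tanmei, 15 of 18 genes were higher in tanmei at 10 d and 2 in Col-0. Where they differed at 5 d only and the response was greater in Col-0, none of 23 was higher in tanmei and 20 were higher in Col-0, with a median of 5.19. Where they differed in explants only and the response was greater in tanmei, 4 of 20 were higher in tanmei at 10 d and 6 in Col-0. Where they differed in explants only and the response was greater in Col-0, 9 of 20 were higher in tanmei and 4 in Col-0. At the 2-fold threshold the genes that differed at 5 d only and had the greater response in tanmei were higher at 10 d in tanmei for 57 and in Col-0 for 13 of 109. Those with the greater response in Col-0 were higher in tanmei for 7 and in Col-0 for 81 of 119.

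**Figure D5:**
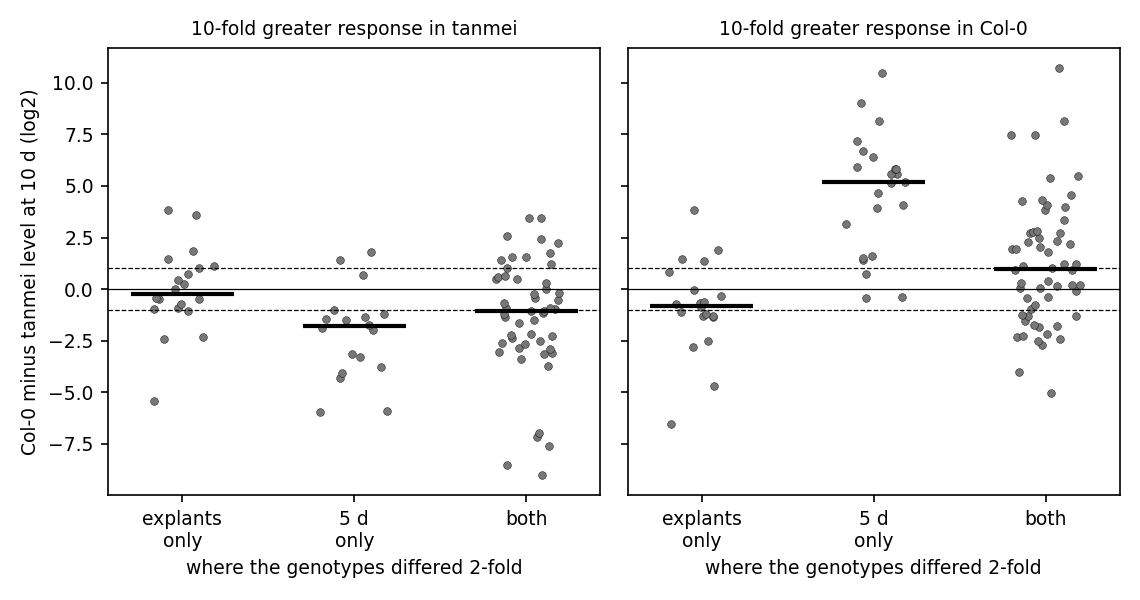
Difference in level at 10 d (Col-0 minus tanmei, log2, relative to the plate median) of genes whose 5 d response differed at least 10-fold, greater in tanmei on the left and in Col-0 on the right, by the time at which the levels differed 2-fold. Each point is a gene and the bar the median; genes that differed at 5 d only lie mostly on one side at 10 d, with medians of -1.80 (left) and 5.19 (right), and those that differed in explants only lie around 0, with medians of -0.22 and -0.81.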

How the data were processed

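RNA of 6 groups, tanmei and Col-0 at 0, 5 and 10 d, was measured by the authors with SYBR Green qRT-PCR on an ABI PRISM system, with UBQ as the reference gene. The deposited values are Ct, not yet normalised to UBQ, which the authors averaged over 3 replicates. A deposited sheet of the authors' own fold changes was not used. Plates were taken as 5 consecutive blocks of equal size, and any plate-wide constant, UBQ included, cancels in the centred difference. Empty Ct was set to 40. How precise each mean is cannot be told, and depth does not apply to PCR.

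Members, gene lists and tests were chosen with earlier results of these data known. Named genes are AP2/EREBP and ABI3/VP1 members among the 12 largest differences in each direction with a Ct below 35 in 3 groups, or in the lists of embryo, meristem, hormone and stress regulators. Codes were checked by linking profiles to the study's supplementary gene table, and 643 of 729 profiles were linked, 59 under the same code and 405 under the same family label. The 65 linked AP2/EREBP and 2 linked ABI3/VP1 profiles kept their family. A listed code was named only if its 5 d changes and its levels in most groups matched. An unlisted code was named if its nearest checked neighbours in code order matched in level. At the start of the order a single neighbour sufficed, and a neighbour could lie in the other family. This left 113 of 137 AP2/EREBP members, so LEP, SHN3, CRF3, CBF4 and others were not reported singly. Of 13 ABI3/VP1 codes, 2 were checked themselves, ABI3 and NGA1, and the others, LEC2 and FUS3 included, rest on neighbours. Names are from RefSeq (TAIR10.1). Alternatives varied the centring, the Ct filter, the value of an empty Ct and the family label, and centring on members only was added after the data were seen. The counting was tested on simulated data. Python 3.11.15, numpy, pandas and scipy were used.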

Additional observations from a re-analysis of the deposited data

Results flagged for a closer look

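Of the 67 named genes, 3 had a Ct below 40 in all 4 groups and changed past 2-fold in opposite directions in the genotypes. For none could the difference be tested, since each group had 1 value. Over all members, 1.88% fell in tanmei and rose in Col-0, and 2.31% did the reverse. The named genes were in part ranked by the difference itself. DREB2C fell by 2.17 in tanmei and rose by 1.66 in Col-0, with a difference of 3.94. ERF1 fell by 1.56 in tanmei and rose by 1.90 in Col-0, with a difference of 3.55. DPA4, which was named after its values were seen, fell by 2.05 in tanmei and rose by 1.62 in Col-0, with a difference of 3.77.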

How the results depend on the processing

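No paired analysis was possible because each group had 1 mean Ct per gene, and leaving out a replicate was not possible for the same reason. The planned promoter motif counts were not run. Without centring, 189 genes had a response 2-fold greater in tanmei and 871 in Col-0, and 53 and 189 past 10-fold; the counts were 20 and 65 in AP2/EREBP and 0 in tanmei for ABI3/VP1, all 10 family medians were above 0, and 36.5% and 23.3% of genes differed in explants only and at 5 d only. With a Ct below 35 in all 4 groups, 54 and 53 genes passed 10-fold in tanmei and Col-0, and 26.0% differed at both times and 12.0% at neither. With a Ct below 30 in at least 2 groups these counts were 47 and 57, and 27.1% differed at both times. With a Ct below 30 in all 4 groups, 181 and 202 genes passed 2-fold and 21 and 19 passed 10-fold in tanmei and Col-0, AP2/EREBP had 24 and 17, the shares by time were 33.9%, 32.1%, 19.1% and 14.9% in the order explants only, 5 d only, both and neither, and 63.2% of genes 10-fold greater in Col-0 were higher in Col-0 at 10 d. With high Ct set to 35, 26.4% differed at both times. At 10-fold for the levels the shares were 13.7%, 10.3%, 3.13% and 72.9%. With the plate median over genes with a Ct below 30, 3 family medians were above 0 in place of 6. Of 155 such values under alternatives, 121 stayed within the limits set for a change. No named gene changed the direction of a 2-fold difference. The Ct filters could not alter a gene's value, and the other centrings shifted all genes of a plate alike, so these settings say little about single genes. Without centring, 10 named genes lost a 2-fold difference and 13 gained one. The 10 count PUCHI, for which no difference is given because the explants of both genotypes had a Ct of 40.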

Other observations

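A pair of stress regulators differed more between the genotypes in level at 10 d than in the 5 d response, where their differences were 0.99 for DREB2A and 0.87 for CBF3, and 2.01 and 1.89 without centring. DREB2A had a Ct of 20.5, 27.2 and 27.0 in tanmei at 0, 5 and 10 d, against 21.7, 26.4 and 21.9 in Col-0. Its level at 10 d was higher in Col-0 by 4.39. CBF3 had a Ct of 28.1, 31.9 and 31.4 in tanmei, against 28.9, 30.8 and 26.4 in Col-0, and was higher in Col-0 at 10 d by 4.19. Between 5 and 10 d the Ct of both genes dropped in Col-0 and moved by less than 1 cycle in tanmei.

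Among AP2/EREBP genes, the level at 10 d was higher in tanmei for 23 and in Col-0 for 4 of the 44 with a greater response in tanmei. It was higher in tanmei for 12 and in Col-0 for 15 of the 35 with a greater response in Col-0. Of all 137 members of the family, 48 were higher in tanmei at 10 d and 27 in Col-0.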
